A study of Homo sapiens with 10 samples.

Results

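JARID2 lies on the short arm of human chromosome 6, and its locus was taken here as every window of the deposited H3K27ac count table on chromosome 6 that starts from 15200000 to 15560000 (hg19). The gene itself spans about 15246000 to 15522000, so the 360 kb interval holds the whole gene and a flank on either side. Of the 42067 windows in the table, 3 met this rule, which used position only. The locus itself was chosen with earlier results of these data known. H3K27ac is the acetylation of a lysine in the tail of histone H3 that marks active promoters and enhancers, and each value below is the number of ChIP-seq reads counted in a window of 400 bases. The cells were Rh30, an established line of alveolar rhabdomyosarcoma, in which the fusion transcription factor PAX3-FOXO1 carried an FKBP degron, a tag through which the ligand dTAG47 directs the fusion to the proteasome. Cells in every group carried this tagged fusion. They received the solvent DMSO, with no time given in the labels, or dTAG47 at 500 nM, harvested after 2 h, 4 h and 24 h, and each of the 4 groups had 2 libraries. The same DMSO libraries served every comparison with the solvent, so time in culture and time in the degrader cannot be told apart, and the 3 comparisons are not independent of each other. The labels do not say whether libraries of a group came from separate cultures, so p-values measure the spread between these libraries, which may be technical. The fusion protein was not measured in these data, and the table names no genes by which the muscle-like identity of the line could be checked.

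JARID2 is the founding Jumonji protein. It has the family's fold but lacks demethylase activity, and it acts as an accessory subunit of Polycomb repressive complex 2 (PRC2). That complex methylates the same lysine of histone H3 whose acetylation was measured here, and a single lysine cannot carry both marks. JARID2 helps to bring PRC2 to its target genes in embryonic stem cells. In alveolar rhabdomyosarcoma it has been described as a gene bound by PAX3-FOXO1 that holds back muscle differentiation. The comparisons with DMSO show H3K27ac at its start after dTAG47. Whether this acetylation depends on the fusion was not tested, since the fusion protein was not measured.

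RefSeq lists 2 promoters for JARID2, whose sequences are shown because most of the H3K27ac signal of the locus lay near the gene start. Each line gives the 250 bases before a transcription start, on the plus strand and 5′ to 3′. Their coordinates are on GRCh38.p14, another build than that of the windows, and the windows were therefore not placed on them. Capitals mark the matches to the motifs named after the sequences.
First promoter, chr6:15245819-15246068: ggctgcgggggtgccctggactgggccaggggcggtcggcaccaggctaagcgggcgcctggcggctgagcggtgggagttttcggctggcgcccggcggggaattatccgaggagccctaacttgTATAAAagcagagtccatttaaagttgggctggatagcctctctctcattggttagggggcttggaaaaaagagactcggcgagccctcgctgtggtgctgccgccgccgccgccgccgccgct
Second promoter, chr6:15248605-15248854: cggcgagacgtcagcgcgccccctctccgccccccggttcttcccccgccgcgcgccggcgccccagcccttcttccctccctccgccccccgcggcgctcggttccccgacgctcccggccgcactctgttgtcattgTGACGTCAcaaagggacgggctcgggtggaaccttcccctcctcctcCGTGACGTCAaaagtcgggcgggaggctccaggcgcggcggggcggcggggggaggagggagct
The 2 transcription starts lie 2786 bases apart. Both stretches are rich in G and C, at 65.6% for the first and 74.8% for the second. They hold 22 and 34 CG dinucleotides, against a median of 11 over 35116 RefSeq promoters of this length, and 93.2% of those promoters held fewer than the second. Motifs were searched on both strands. GTCACG, the core of the site bound by the paired domain of PAX proteins, matched the second promoter once, on the minus strand, 64 bases before the start, where it reads CGTGAC on the strand shown. This motif occurred in 7.93% of all promoters. The match overlaps 1 of 2 copies of TGACGTCA, the cyclic AMP response element, which begin 111 and 62 bases before the same start. TGACGTCA was added to the search after the sequence was seen and occurred in 1.65% of promoters. The first promoter held TATAAA, the letters of a TATA box, 124 bases before its start, also a motif added later, which 10.7% of promoters held. Neither promoter held the homeodomain half-sites TAAT and ATTA spaced by 3 bases (0.33% of promoters), CAGCTG, an E-box of the myogenic factors (14.0%), or GTAAACA, a forkhead site (2.98%). A match describes letters in the reference and does not show a bound site.

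The windows stood in 2 places, a pair around the gene start and a single one beyond the gene end. The upstream window, at 15245167 to 15245567, ends 0.43 kb before the approximate gene start. The start window, at 15248294 to 15248694, begins 2.29 kb after it and was the 1 window of the locus within the gene's bounds. The 2 windows are separated by 2.73 kb, a shorter distance than 85.6% of the 42043 gaps between neighbouring windows of the table, whose median was 20212 bases. The distal window, at 15551661 to 15552061, begins 29.7 kb past the approximate gene end, on the side where RefSeq places DTNBP1, which encodes dysbindin, and its antisense transcript DTNBP1-AS1 as neighbours. These genes are known here by their order only. Whether the distal window lies within DTNBP1 or between genes was not determined, because no hg19 annotation was at hand. On the other side the nearest RefSeq gene is the divergent transcript JARID2-DT. No window of the table used here starts in the 303 kb between the start window and the distal window, which covers nearly all of the gene body, and 3.93% of gaps in the table were longer. The table holds counts only for the windows it lists, and how these were chosen is not given. The gap therefore does not measure acetylation in between. In tiles of 360 kb laid across the genome, the median number of windows was 5 among the 6116 tiles that held any, and 61.6% of them held more than the 3 found here.

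**Figure D1:**
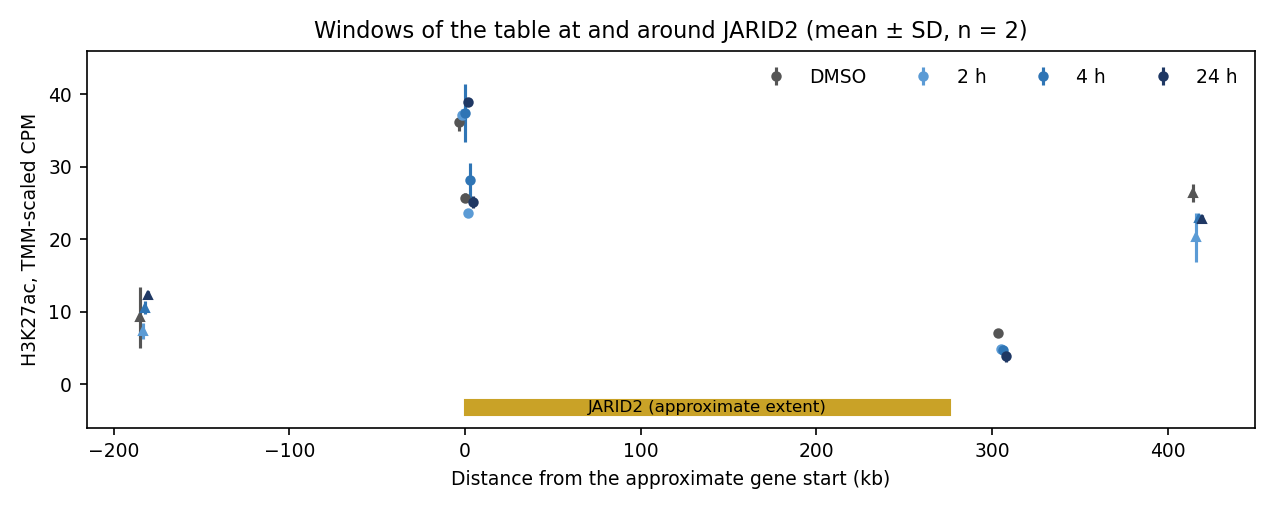
H3K27ac in CPM scaled by TMM (mean ± SD of 2 libraries) against the distance in kb from the approximate start of JARID2; circles are the windows of the locus, triangles the nearest window on each side outside it, colours the groups (drawn slightly apart along the x axis for legibility), and the bar the approximate gene. The pair at the gene start lies between 23.6 and 39.0 CPM in every group, and the window beyond the gene end between 3.96 and 7.11 CPM.

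Levels are given in CPM, the reads of a window relative to all reads in windows, with library sizes scaled by TMM. They can be compared between windows because the 3 windows have the same width. In the upstream window DMSO libraries A and B held 35.3 and 36.9 CPM, and those at 2 h held 37.7 and 36.7 CPM. At 4 h the libraries held 34.6 and 40.2 CPM, and at 24 h 38.8 and 39.1 CPM. The 4 h libraries lay on either side of every other library of this window, while both 24 h libraries lay above both DMSO libraries by a small margin. Here and below, the share of all windows in which the libraries of compared groups do not overlap was not counted. Such an order of libraries is therefore a description only. The window's mean over the 8 libraries, 37.4 CPM, was above that of 80.6% of tested windows.

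In the start window DMSO libraries held 26.2 and 25.3 CPM, and those at 2 h held 23.9 and 23.3 CPM. At 4 h they held 26.4 and 29.8 CPM, and at 24 h 24.6 and 25.7 CPM. Here the 2 h libraries were the lowest and the 4 h libraries the highest, and the DMSO and 24 h libraries overlapped. The mean of 25.6 CPM exceeded that of 70.3% of tested windows. The upstream window was higher than the start window in all 8 libraries. Its share of the pair's reads was 58.4% ± 1.38 (SD, n = 2) in DMSO, 61.2% ± 0.035 at 2 h, 57.1% ± 0.531 at 4 h and 60.8% ± 0.636 at 24 h. Exact 95% binomial intervals of single libraries, which cover counting error only, ran from 50.5% to 64.1% for DMSO library A and from 55.7% to 66.6% for 24 h library A. Only that of 4 h library A, from 49.9% to 63.3%, included an equal split.

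The distal window was weak. It held 6.83 and 7.39 CPM in the DMSO libraries, from 24 and 26 reads, and 4.95 and 4.69 CPM at 2 h. At 4 h it held 4.91 and 4.47 CPM, and at 24 h 3.37 and 4.55 CPM, from 17 and 20 reads. All 6 libraries from treated cells lay below both DMSO libraries, an order whose share over all windows was not counted. The 4 h libraries overlapped both other treated groups, and both 24 h libraries lay below both 2 h libraries. Of all tested windows, 8.35% passed the test of 24 h against DMSO, and this one did not. With a mean of 5.14 CPM, the window was stronger than 9.68% of tested windows. Its share of the reads of the locus was 10.0% and 10.6% in the DMSO libraries and between 5.04% and 7.44% in the treated ones.

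**Figure D2:**
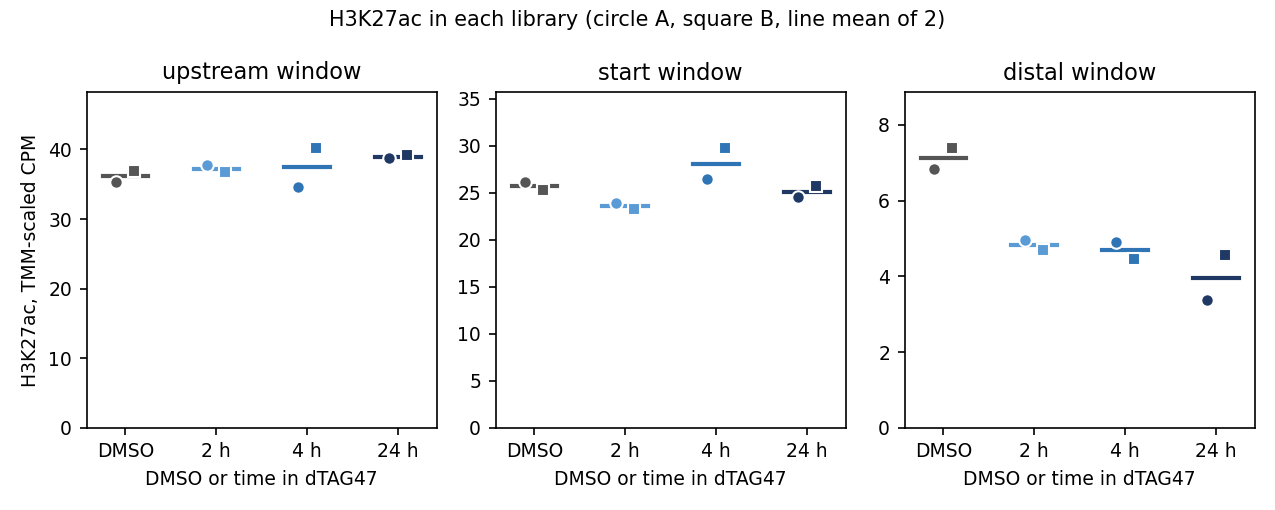
H3K27ac in CPM scaled by TMM in each library (circle, library A; square, library B; line, mean of 2) for the 3 windows, by group; each y axis starts at 0 and has its own range. The windows at the gene start stay within 34.6 to 40.2 and 23.3 to 29.8 CPM, and in the distal window the DMSO libraries, at 6.83 and 7.39 CPM, lie above all treated libraries.

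Summed over the 3 windows, the locus held 69.0 ± 0.907 CPM (SD, n = 2) in DMSO, 65.6 ± 1.38 at 2 h, 70.2 ± 5.99 at 4 h and 68.1 ± 1.86 at 24 h. In order of level the groups were 4 h, DMSO, 24 h and 2 h. The first 3 lay within the spread of the 4 h libraries (66.0 and 74.5 CPM), and the 2 h libraries (66.6 and 64.6 CPM) overlapped those at 4 h but lay below both DMSO (68.3 and 69.6 CPM) and both 24 h libraries (66.8 and 69.4 CPM). The libraries held between 3540104 and 5001652 reads in windows in all, and between 240 and 337 reads in the locus.

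Acetylation at the start of JARID2 did not change detectably after 2 h of the degrader. The log2 change against DMSO was 0.04 (SE 0.13) in the upstream window and -0.13 (SE 0.15) in the start window, with adjusted p = 0.95 and 0.834 in edgeR's quasi-likelihood test, which was fitted over all windows of the table with Benjamini-Hochberg adjustment. In the distal window it was -0.56 (SE 0.31, edgeR adjusted p = 0.511). None of the 3 windows was called at an adjusted p under 0.05, where 1.23% of the 41791 tested windows were called, and 0 of 3 had an unadjusted p under 0.05 (11.1% of all windows). The median change of the 3 windows was -0.13, against 0.005 over all tested windows.

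After 4 h the log2 changes against DMSO were 0.06 (SE 0.13) in the upstream window, 0.13 (SE 0.15) in the start window and -0.60 (SE 0.32) in the distal window. The edgeR adjusted p-values were 0.91, 0.784 and 0.406. Again 0 of the 3 windows were called, where 2.23% of all tested windows were, and 0 had an unadjusted p under 0.05 (13.1% of all windows). The median change of the members was 0.06, against 0.004 over all windows. Without 4 h library B the change of the upstream window was -0.06.

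After 24 h the windows at the gene start still lay at the DMSO level within their error, and the distal window had its lowest level. The upstream window had a log2 change of 0.11 (SE 0.12, edgeR adjusted p = 0.68), and the start window one of -0.04 (SE 0.15, edgeR adjusted p = 0.928). For the upstream window the 95% interval ran from 0.911 to 1.28 times the DMSO level, and for the start window from 0.797 to 1.19 times. In the distal window the log2 change was -0.85 (SE 0.31), 0.553 times the DMSO level, with a 95% interval from 0.36 to 0.85 times. This missed the threshold after adjustment over all windows (unadjusted p = 0.00712, adjusted p = 0.0715, edgeR). Thus 0 of 3 windows were called at 24 h, where 8.35% of all tested windows were called and 4.88% were called lower, and 1 of 3 had an unadjusted p under 0.05, as did 21% of all windows. The median change of the members was -0.04, against 0.001 over all windows. Of all tested windows, 2.18% had a lower change than the distal window, whereas 44.1% lay below the start window and 65.3% below the upstream window.

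**Figure D3:**
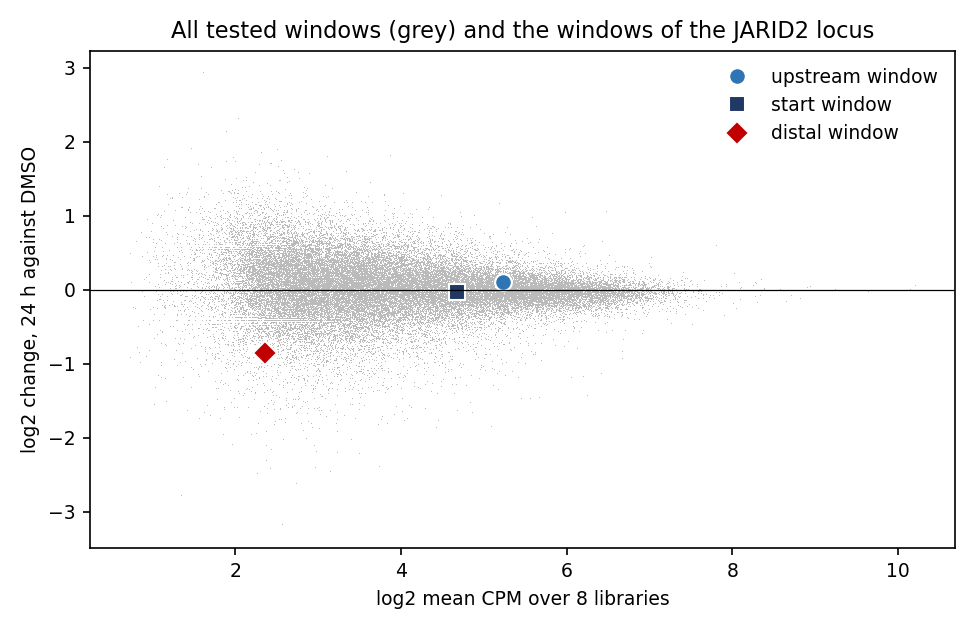
The log2 change in H3K27ac from DMSO to 24 h of dTAG47 (y axis) against the log2 mean CPM over 8 libraries (x axis) for the 41791 tested windows (grey) and the 3 windows of the locus (symbols). The upstream and start windows, at 0.11 and -0.04, lie above 65.3% and 44.1% of all tested windows in change. The distal window, at -0.85, lies above 2.18% of them and among the weak windows, whose changes spread widely. The share among windows of similar level was not counted.

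The low read number of the distal window sets its precision. A 95% interval from 0.36 to 0.85 times the DMSO level leaves its size uncertain, and each alternative left it uncalled. In DESeq2 its unadjusted p at 24 h was 0.0726 and its adjusted p 0.686, and without 24 h library A the log2 change was -0.64 (edgeR adjusted p = 0.428). DESeq2 called 0 of the 3 windows in any comparison, against 0.0827%, 0.208% and 1.22% of the windows to which it gave an adjusted p at 2 h, 4 h and 24 h, 0.228% for 24 h against 2 h, 0.0113% for 24 h against 4 h and 0% for 4 h against 2 h. DESeq2 gave no adjusted p for the distal window in the comparisons of 2 h with DMSO, 24 h with 2 h and 24 h with 4 h, so that 2 of the 3 windows could be called there.

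No window of the locus was called between the treated times by edgeR, nor by DESeq2 among those to which it gave an adjusted p. From 2 h to 24 h the log2 changes were 0.07 in the upstream, 0.09 in the start and -0.29 in the distal window (edgeR adjusted p = 0.824, 0.808 and 0.71), where 4.18% of all windows were called. From 4 h to 24 h they were 0.05, -0.17 and -0.25 (edgeR adjusted p = 0.9, 0.661 and 0.814), where 1.12% of all windows were called. From 2 h to 4 h the start window had a log2 change of 0.26 (SE 0.15, unadjusted p = 0.0808, edgeR adjusted p = 0.761). The upstream and distal windows had 0.02 and -0.04 over the same step, at which 0% of all windows were called by edgeR and none by DESeq2. In each of these 3 comparisons 0 of 3 windows had an unadjusted p under 0.05, against 17.6%, 13.5% and 6.92% of all windows.

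Reading the pair at the gene start as 1 element gave narrower intervals. Windows no more than 12500 bases apart were joined and their counts summed, which made a region of 2 windows from 15245167 to 15248694. It held 61.5 and 62.2 CPM in the DMSO libraries and 61.6 and 60.0 CPM at 2 h. It held 61.1 and 70.0 CPM at 4 h, and 63.4 and 64.8 CPM at 24 h. Both 24 h libraries were above both DMSO libraries, and the other treated groups overlapped DMSO. The log2 change of the region was -0.02 (SE 0.10) at 2 h, 0.10 (SE 0.10) at 4 h and 0.06 (SE 0.10) at 24 h, with edgeR adjusted p-values of 0.967, 0.748 and 0.813 over 26144 regions. Its 95% intervals were 0.86 to 1.13, 0.932 to 1.22 and 0.911 to 1.19 times the DMSO level. Relative to the other windows, a fall below 0.911 times the DMSO level at 24 h therefore lies outside edgeR's interval for the gene start. The interval does not cover a change common to all windows, and it rests on 2 libraries per group. It also depends on the method. For the region at 24 h DESeq2 gave a larger unadjusted p than edgeR (0.694 against 0.563), and no interval was taken from DESeq2. The region was not called at any time, where 2%, 2.97% and 9.54% of all regions were called at 2 h, 4 h and 24 h. The distal window formed a region of its own, with a log2 change of -0.85 (edgeR adjusted p = 0.0712) at 24 h.

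**Figure D4:**
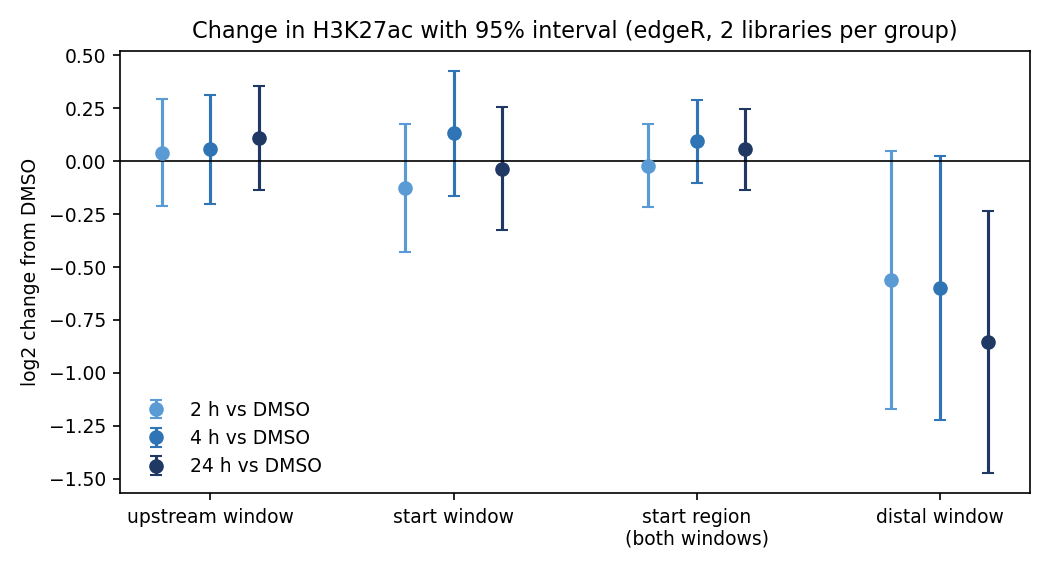
The log2 change in H3K27ac from DMSO (y axis, with 95% intervals from edgeR) at 2 h, 4 h and 24 h for the upstream and start windows, for the region that joins them, and for the distal window. The intervals of the region at the gene start span 0 at each time, and the interval of the distal window at 24 h, from -1.47 to -0.23, is the only one shown that does not.

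The windows were also compared with the region or tile that holds them. Within the region at the gene start, the upstream window's change differed from that of the region by 0.07 at 2 h, -0.03 at 4 h and 0.06 at 24 h on the log2 scale. In edgeR's diffSpliceDGE, a test of each window against its own region as a whole, the window included, the adjusted p was 1.00, 1.00 and 0.981. Of the 23845 windows tested, 0.0294%, 0.117% and 1.43% were called. A similar test of the distal window against its 360 kb tile as a whole, the window included, was added after its values were seen. At 2 h, 4 h and 24 h its change differed from that of the tile by -0.49, -0.63 and -0.84 on the log2 scale (unadjusted p = 0.113, 0.0479 and 0.0079). After adjustment none was called (edgeR adjusted p = 0.793, 0.515 and 0.107), where 0.35%, 0.752% and 4.56% of 40837 windows were called. This tile held only the 3 windows of the locus, so its other windows were the pair at the gene start. The lower change of the distal window was thus not separated at the adjusted threshold from that of its tile. A contrast with the gene start alone, leaving the distal window out of the tile, was not tested.

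Just outside the interval the nearest windows were far away and were not called against DMSO either. The one upstream, at 15063328 to 15063728, lies 181 kb before the upstream window. It held 6.26 and 12.2 CPM in the DMSO libraries and 11.9 and 12.7 CPM at 24 h, so that 1 DMSO library overlapped the 24 h libraries (log2 change 0.41, SE 0.23, edgeR adjusted p = 0.311). The one downstream, at 15662934 to 15663334, lies 111 kb past the distal window, and its place relative to DTNBP1 was not determined either. It held 27.3 and 25.6 CPM in DMSO and 23.2 and 22.5 CPM at 24 h, with both 24 h libraries below both DMSO libraries (log2 change -0.21, SE 0.15, edgeR adjusted p = 0.46).

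The region at the gene start varied little over the 8 libraries, with an SD of 0.07 in log2 CPM against a median of 0.10 over 9625 other regions with a mean CPM at least 0.5 times its own. Among these, the regions whose log2 CPM followed it most closely were one on chromosome 5 at 53073807 to 53076504 (Pearson r = 0.95 over the 8 libraries), one on chromosome 7 at 104653876 to 104654276 (r = 0.94) and one on chromosome 2 at 204192923 to 204193323 (r = 0.94). These are the highest of 9625 values from libraries that share scaling factors. Whether the small variation of the region at the gene start exceeds counting error was not tested, so no shared behaviour is read from these values.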

How the data were processed

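H3K27ac ChIP-seq of Rh30 cells was analysed from 1 table of raw read counts deposited by the authors for 8 libraries, whole numbers per the values. The submitters' processing notes name the tools DiffBind, DESeq2, MACS2, Bowtie2 and Trimmomatic 0.32 and the builds hg19 and dm3, without roles. Which libraries the windows were called in, how duplicates were treated and whether a spike-in was used are not given in the sources used here, so a change common to all windows cannot be seen. The 2 input libraries were not used here. Columns were matched to groups by name, and 0 columns were left without a group. The 2 libraries of a group differed by more than sampling noise (chi-square per degree of freedom 1.06 to 1.21).

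The test was run with edgeR 4.0.16 (R 4.3.3): filterByExpr (minimum count 10, minimum total 15; 41791 windows kept, all 3 members among them), TMM, and 1 robust quasi-likelihood fit of the 4 groups, called at an adjusted p of 0.05. The biological coefficient of variation was 3.29%, and a median of 182 prior degrees of freedom means that errors rest mostly on spread shared by all windows. Intervals of changes use these errors. The procedure was also run on counts simulated from its own fitted spread, with known changes put into some windows. That run tests neither the spread between cultures nor the power at the read numbers of the distal window. DESeq2 1.42.0, other scalings, filters and stitching distances and leaving out each library were alternatives. The promoters are RefSeq's. The locus, tests and motifs were chosen with earlier results of these data known. All members were named, since none was called. PRC2 genes were not examined, because no hg19 annotation was at hand. Starts are printed as deposited and may count from 0.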

Additional observations from a re-analysis of the deposited data

How the results depend on the processing

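The number of windows of the locus called was 0 in either direction for every comparison under each alternative run, as was the number of stitched regions. DESeq2 gave the distal window no adjusted p in 3 comparisons, nor the distal region at 2 h and 4 h against DMSO. The alternatives were DESeq2, median-ratio size factors, total counts, no filter, a fit of only the groups compared, a test against a 1.2-fold change, leaving out each library and, for regions, stitching across 5 kb or 25 kb. The log2 change of the distal window at 24 h ranged from -1.07 to -0.64 over its 11 alternatives, with adjusted p from 0.0566 to 0.686. Log2 changes near 0 turned sign when 1 library was left out, none of them called. Over the libraries left out, the upstream window ranged from -0.061 to 0.154 at 4 h against DMSO (negative without 4 h library B), from -0.101 to 0.114 at 4 h against 2 h (negative without 4 h library B, and -0.0075 without 2 h library B), and from -0.0432 to 0.172 at 24 h against 4 h (negative without 4 h library A). The distal window ranged from -0.105 to 0.030 at 4 h against 2 h (positive without 4 h library B). The start region ranged from -0.0429 to 0.0065 at 2 h (positive without 2 h library B) and from -0.0086 to 0.184 at 4 h against DMSO (negative without 4 h library B). Counting only the window within the gene's bounds, the level of the locus was 25.7 CPM in DMSO, 23.6 at 2 h, 28.1 at 4 h and 25.1 at 24 h, since the upstream and distal windows then drop out. The columns carry the letters A and B and not the replicate numbers of the labels, and nothing states that a letter pairs libraries. The A minus B differences of log2 CPM correlated between groups at -0.0332 to 0.0543 over windows (6 pairs of groups, 0 above 0.1). With the letter as a replicate block, added after the data were seen, 0 windows and 0 regions of the locus were called, and the distal window had a log2 change of -0.85 at 24 h (edgeR adjusted p = 0.0712). Calls over all windows then numbered 537, 960 and 3565 at 2 h, 4 h and 24 h, against 512, 934 and 3488 without the block. With 17 to 26 reads per library, the depth limits the distal window most.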
